A study of Mus musculus with 8 samples.

Results

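Sodium, potassium and chloride channel genes of the muscle fibre surface were followed: 9 of the 20145 genes named on the array, covered by 15 of its 55681 non-control probes and chosen by matching probe accessions to the symbols Scn4a, Clcn1, Kcnj2, Kcnj11, Abcc8, Kcna7, Kcnc1, Kcnc4 and Kcnq5. At their brightest probe all 9 genes were lower in PCKO muscle than in WT muscle, where 31.9% of all named genes were lower and 37.5% higher. Kcnj2 and Kcnq5 entered the test through their signal in WT muscle and so had to be lower. RNA came from extensor digitorum longus (EDL), a fast hindlimb muscle of the mouse. PCKO animals (4 male C57BL/6 mice) carried an inducible, skeletal muscle-restricted deletion of the genes for the acetyltransferases p300 (Ep300) and CBP (Crebbp), although their genotype label names CBP alone, and WT animals (4 male C57BL/6 mice) are labelled wildtype. Tamoxifen was given by gavage for 5 days, beginning at an age of 13 to 15 weeks, and muscle was taken 1 day after the final dose following a 4 h fast. The protocol describes this dosing for PCKO mice, and neither whether WT mice were dosed nor which promoter drives the recombinase is given in the sources used here. Each mouse had a single-colour Agilent array, all 8 on 1 slide. The comparison asks how the channel transcripts differ shortly after induction of the knockout.

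A skeletal muscle fibre fires an action potential when voltage-gated sodium channels open, repolarises as voltage-gated potassium channels open and sodium channels inactivate, and is held near its resting potential by a large chloride conductance together with inward rectifier potassium channels. ATP-sensitive potassium (KATP) channels, built from a pore subunit of the inward rectifier family and a sulfonylurea receptor, link membrane excitability to the energy state of the fibre. Faults in these channels are known for myotonia, in which the fibre fires too readily, and for periodic paralysis, in which it fails to fire.

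Sequence upstream of the annotated start was available for 7 of the 9 genes, in 8 windows of 250 bases (RefSeq, GRCm38.p6). Kcnj11 and Abcc8 had none. The windows of Clcn1, Kcna7 and Kcnj2 are shown because they hold the most E-boxes, the sequence CANNTG read by myogenic factors such as MyoD. Scn4a, with no E-box in its window, is shown beside them. The windows of Kcnq5, not shown, also hold no E-box. Those of Kcnc1 and Kcnc4, not shown either, hold 1 each. Capitals mark each CANNTG and, in Clcn1, a MEF2 site. They are written 5′ to 3′ on the strand of the gene, from chr6:42286435-42286684 (plus strand), chr7:45405710-45405959 (plus strand), chr11:111065914-111066163 (plus strand) and chr11:106349391-106349640 (minus strand) in the order Clcn1, Kcna7, Kcnj2 and Scn4a. For Clcn1, Scn4a, Kcnc1, Kcnc4 and 1 Kcnq5 window, the starts used by RefSeq lie inside the annotated span of the gene. These windows are therefore not upstream of the whole gene.
Clcn1: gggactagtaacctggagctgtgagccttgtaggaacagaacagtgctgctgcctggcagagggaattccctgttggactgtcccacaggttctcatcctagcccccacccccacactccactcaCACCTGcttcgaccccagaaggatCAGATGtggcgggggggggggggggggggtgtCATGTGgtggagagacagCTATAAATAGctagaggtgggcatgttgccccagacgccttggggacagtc
Kcna7: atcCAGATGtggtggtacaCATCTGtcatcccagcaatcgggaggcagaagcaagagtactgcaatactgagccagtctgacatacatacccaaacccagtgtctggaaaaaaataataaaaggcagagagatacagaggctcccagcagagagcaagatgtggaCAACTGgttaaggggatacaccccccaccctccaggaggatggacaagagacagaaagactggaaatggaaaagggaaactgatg
Kcnj2: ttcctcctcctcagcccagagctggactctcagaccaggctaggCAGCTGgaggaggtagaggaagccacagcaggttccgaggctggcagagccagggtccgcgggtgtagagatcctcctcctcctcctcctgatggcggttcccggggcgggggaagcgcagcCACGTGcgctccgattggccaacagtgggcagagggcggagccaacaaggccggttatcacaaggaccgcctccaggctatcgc
Scn4a: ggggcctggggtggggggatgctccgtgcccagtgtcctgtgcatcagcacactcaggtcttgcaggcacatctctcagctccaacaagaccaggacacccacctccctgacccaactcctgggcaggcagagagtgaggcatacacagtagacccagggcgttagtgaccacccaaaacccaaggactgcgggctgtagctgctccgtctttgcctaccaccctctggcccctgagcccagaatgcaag

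CANNTG was found on either strand in 5 of the 8 windows, and in 66.2% of the 32851 windows of the same length for all genes. The narrower form CAGCTG, which is also counted as CANNTG, was present in 1 window (Kcnj2), against 13.0% of all windows. A MEF2 site was present in 1 window (Clcn1), against 0.508% of all windows. The cyclic AMP response element TGACGTCA, the site of the CBP-binding factor CREB, was in none of the 8 windows and in 1.55% of all windows. Its partial form TGACG was in 2 (Kcnc1 and Kcnc4), against 17.8% of all windows. These letters are a description of the windows and were not tested against the expression values.

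Values below are log2 of the spot intensity, minus the 75th percentile of the same array, so 0 is the level of a moderately bright probe. Each log2 difference subtracts WT from PCKO and carries the standard error (SE) from limma, fitted to 24872 probes, with p adjusted by Benjamini-Hochberg over all of them. Levels are compared only within a probe, because probes differ in brightness for reasons other than RNA amount. The targeted genes were lower in PCKO, Ep300 by a log2 difference of -1.44 ± 0.11 and Crebbp by -0.70 ± 0.11 (with spike-in centring -0.02, adjusted p = 0.95, and a call also lost with the normexp background correction), where the position of each probe relative to the deleted exons is unknown. Between 43.5% and 46.1% of probes lay well above background on an array, with PCKO and WT arrays overlapping. Of the 8 fibre markers (Ckm, Acta1, Myh4, Tnnt3, Atp2a1, Des, Pvalb and Casq1) all 8 were lower, with a summed log2 level of 10.12 to 10.42 in PCKO and 12.23 to 12.64 in WT. The fall was uneven, with a log2 difference of -5.40 for Pvalb but -0.76 for Tnnt3 and -0.66 for Myh4. The summed level is weighted to the brightest markers. Markers of endothelium (5 of 5 lower), smooth muscle and pericytes (6 of 6), fibroblasts (5 of 5) and macrophages (3 of 4) were lower too, while those of Schwann cells and nerve had 1 lower and 1 higher of 6, and of the 2 tested satellite cell markers 1 was lower. Among all named genes 31.9% were lower and 37.5% higher. With arrays centred on spiked-in transcripts, 6 of the 8 fibre markers, 3 of 5 fibroblast, 1 of 4 macrophage and 1 of 2 satellite cell markers were lower, and none of the endothelial, smooth muscle and pericyte, or Schwann cell and nerve markers. Under that centring 9.40% of all named genes were lower and 53.5% higher. In such whole-muscle RNA, fewer cells of a type and less RNA per cell cannot be told apart. Relative to transcripts spiked into each sample, the 75th percentile itself was 0.68 log2 units higher in PCKO, so values centred on the spike-ins are given where they matter.

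Of the 15 probes, 14 were well above background on at least 4 arrays and were tested, and all 14 were lower in PCKO at an adjusted p of 0.05, where 31.3% of all tested probes were lower and 33.8% higher. At the brightest probe of each gene, 9 of 9 were lower, where 69.4% of named genes passed the test in either direction. In each of the 14, the 4 PCKO mice lay below the 4 WT mice, as for 28.7% of all tested probes, with 31.5% separated the other way. At 4-fold or more below WT in the processed signal there were 11 of the 14, against 5.09% of all tested probes. Kcnj2, Kcnq5, the dimmer Kcnj11 probe and the dimmest Kcnc1 probe passed the filter through the WT arrays and so had to be lower, while the 9 channel probes above background on all 8 arrays were all lower as well. The 4 that had to be lower are among the 11, with sizes that depend on the background. For the dimmer Kcnj11 probe the bound is only 3.19-fold. The median log2 difference of the 14 probes was -3.58, against 0.02 over all tested probes. Over the 9 channel probes above background on all 8 arrays it was -2.37. The genes were picked with earlier results of these data in view, so these counts are read only against those shares.

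**Figure D1:**
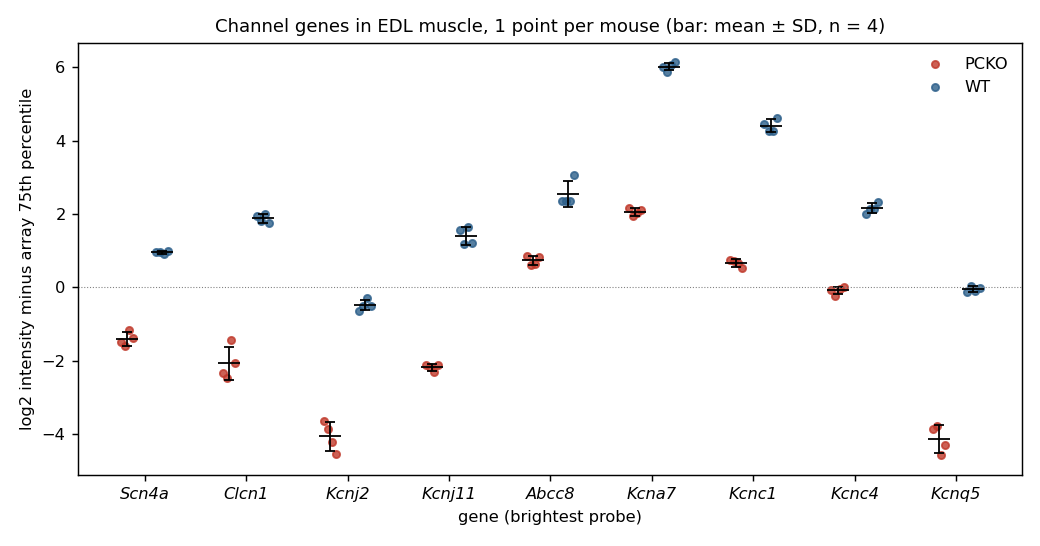
Log2 intensity minus the array's 75th percentile (vertical axis) for the brightest probe of each of the 9 channel genes (horizontal axis), 1 point per mouse, with the mean and SD of the 4 PCKO and 4 WT mice. In every gene the 4 PCKO points lie below the 4 WT points. Heights of different genes are not comparable.

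Scn4a encodes Nav1.4, the sodium channel that carries the upstroke of the muscle action potential. Its probe read -1.50, -1.59, -1.17 and -1.37 in the 4 PCKO mice, against 0.98, 0.95, 0.91 and 0.999 in the 4 WT mice. The WT mice lay close to each other and every PCKO mouse was below them. The difference came to -2.37 ± 0.10, or 5.16-fold lower (adjusted p = 3.3e-07). It was -1.69 with spike-in centring and -1.56 with another background correction (normexp).

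Clcn1 encodes ClC-1, the chloride channel that provides most of the resting conductance of the fibre. Its values were -2.32, -2.47, -1.44 and -2.07 in PCKO mice, against 1.95, 1.82, 2.01 and 1.75 in WT mice. PCKO replicate 3 stood highest in its group but remained far below the WT mice. PCKO minus WT was -3.96 ± 0.21, or 15.6-fold lower (adjusted p = 1.0e-06). It was -3.28 with spike-in centring, -2.60 with normexp and -3.00 in the deposited table. Scn4a changed by 1.59 ± 0.16 log2 units less than Clcn1, measured as the difference between the 2 probes within each array (exact permutation test, two-sided, n = 4 each, p = 0.0286, the smallest possible, adjusted p = 0.049 over the 12 probe pairs compared). With normexp that difference was 1.04. Scaling of whole arrays cancels in it.

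Kcnj2 encodes Kir2.1, an inward rectifier that stabilises the resting potential. It read -3.64, -3.85, -4.22 and -4.53 in PCKO mice, against -0.63, -0.50, -0.28 and -0.50 in WT mice. Of the PCKO mice 1 had a signal well above background, while all WT mice did. This gave a log2 difference of -3.58 ± 0.19 (adjusted p = 1.0e-06), a size that depends on the background and was -1.42 with the normexp correction, still past the threshold.

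The KATP channel of fast muscle combines the pore Kir6.2 (Kcnj11) with a sulfonylurea receptor, of which SUR1 is the product of Abcc8. The brighter Kcnj11 probe read -2.10, -2.16, -2.31 and -2.12 in PCKO mice, against 1.56, 1.19, 1.65 and 1.21 in WT mice. PCKO mice were nearly alike and WT mice varied more, with no overlap. Its log2 difference was -3.58 ± 0.13, or 11.9-fold lower (adjusted p = 1.2e-07), and -2.27 with the normexp correction. The dimmer Kcnj11 probe had a mean of -5.07 ± 1.18 in PCKO and -2.26 ± 0.15 in WT (SD, n = 4 each). As no PCKO mouse had it well above background and every WT mouse did, it is given as at least 3.19-fold lower in the processed signal (adjusted p = 0.0013). Its log2 difference was only -0.84 with normexp and -0.71 in the deposited table, and the call was lost in slide row 2 alone (adjusted p = 0.094), so the bound holds for the processed signal and not for other background treatments. For a bound of this kind the WT mean is set against a floor in PCKO, which on each array is the dimmest signal still called well above background, or the probe itself where it is brighter. The change of the 2 Kcnj11 probes differed by -0.76 ± 0.63 (exact p = 0.34, adjusted p = 0.46).

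Abcc8 was the least reduced of the 9 genes. Its brighter probe read 0.86, 0.62, 0.64 and 0.84 in PCKO mice, against 2.36, 2.37, 2.35 and 3.07 in WT mice. WT replicate 4 stood above the other WT mice at both Abcc8 probes (3.07 and 3.01), and all PCKO mice lay below all WT mice. At -1.80 ± 0.17 this probe was 3.48-fold lower (adjusted p = 3.3e-05), and the other differed by -1.96 ± 0.19. Without WT replicate 4 it was -1.62, and with spike-in centring -1.12. The change of the 2 probes differed by 0.16 ± 0.06 (exact permutation test, two-sided, n = 4 each, p = 0.0571, adjusted p = 0.086).

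Kcnj11 and Abcc8, whose proteins can share a channel and whose genes neighbour each other on chromosome 7, did not change by the same factor. Which receptor Kir6.2 assembles with in these fibres, SUR1 or the SUR2 of Abcc9 described below, was not measured. Kcnj11 fell by 1.78 ± 0.27 log2 units more than Abcc8 (exact permutation test, two-sided, n = 4 each, p = 0.0286, adjusted p = 0.049), or by 0.91 with the normexp correction. The inward rectifiers Kcnj2 and Kcnj11 differed in their change by -0.01 ± 0.23 (exact p = 0.97), a comparison limited by the PCKO level of Kcnj2 near background, where the normexp value was 0.85.

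Kcna7 encodes Kv1.7, a member of the Shaker family of voltage-gated potassium channels. Its bright probe read 2.16, 1.93, 2.02 and 2.10 in PCKO mice, against 6.00, 5.88, 6.06 and 6.14 in WT mice. Both groups were tight and far apart. This is a log2 difference of -3.96 ± 0.09, or 15.6-fold lower (adjusted p = 2.1e-08), and -3.29 with spike-in centring. A dim probe of the same accession changed less and read -1.51, -1.87, -2.22 and -1.55 in PCKO mice, against -1.06, -1.16, -1.06 and -0.91 in WT mice. Its log2 difference of -0.74 ± 0.16 (adjusted p = 0.0034) shrank to -0.06 (adjusted p = 0.87) once arrays were centred on the spike-ins, and missed the threshold within each slide row (-0.58, adjusted p = 0.057, and -0.90, adjusted p = 0.058). The bright probe fell by 3.22 ± 0.14 log2 units more than the dim probe (exact permutation test, two-sided, n = 4 each, p = 0.0286, adjusted p = 0.049). Where these probes lie in the transcript was not analysed here.

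Kcnc1 encodes Kv3.1, a fast delayed rectifier of the Shaw family, best known from fast-spiking neurons. The brightest of its 3 probes read 0.75, 0.72, 0.68 and 0.52 in PCKO mice, against 4.46, 4.26, 4.28 and 4.63 in WT mice. The groups were separated by more than 3 log2 units. The log2 difference was -3.74 ± 0.11, or 13.4-fold lower (adjusted p = 4.8e-08), and -3.06 with spike-in centring. A second probe of the same accession differed by -3.85 ± 0.27 (adjusted p = 4.8e-06) and was above background in 3 PCKO mice. These 2 probes differed in their change by 0.11 ± 0.27 (exact p = 0.66), and by -1.10 with the normexp correction.

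The remaining Kcnc1 probe is assigned to another transcript accession, NM_001112739, and the first 2 to NM_008421. It read -6.29, -5.84, -5.07 and -5.89 in PCKO mice, against 0.12, 0.03, -0.01 and -0.10 in WT mice. All WT mice and no PCKO mouse gave a signal well above background, which makes it at least 15.6-fold lower in the processed signal (adjusted p = 2.0e-07). Its log2 difference was -1.89 with normexp and -2.25 in the deposited table, both smaller than this bound. Its processed log2 value fell by 2.04 ± 0.29 more than that of the brightest probe (exact p = 0.0286, adjusted p = 0.049), but with the normexp correction the order turned (-1.29). Against the second probe it fell by 1.93 ± 0.29 more (exact p = 0.0286, adjusted p = 0.049), a difference of -0.19 with normexp, so whether the transcripts differ in their loss is not measured by these probes.

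Kcnc4 encodes Kv3.4, a fast inactivating channel of the same Shaw family. It read -0.08, -0.22, -0.04 and 0.02 in PCKO mice, against 2.01, 2.15, 2.14 and 2.33 in WT mice. The PCKO mice lay close together and all below WT. The log2 difference was -2.24 ± 0.10, or 4.71-fold lower (adjusted p = 3.2e-07), and -1.56 with spike-in centring. Kcnc1 fell by 1.502 ± 0.12 log2 units more than Kcnc4, and Kcna7 by 1.73 ± 0.07 more (exact permutation test, two-sided, n = 4 each, p = 0.0286 and adjusted p = 0.049 for each).

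Kcnq5 encodes Kv7.5, a slowly activating potassium channel of the M-current family. Its brighter probe, assigned to NM_001160139, read -3.86, -3.78, -4.57 and -4.31 in PCKO mice, against -0.13, 0.05, -0.11 and -0.004 in WT mice. Every WT mouse had it well above background and no PCKO mouse did, so that it was at least 13.45-fold lower in the processed signal (adjusted p = 3.1e-07), with a smaller log2 difference of -1.68 under normexp. The other probe, assigned to NM_023872, was well above background in 1 PCKO mouse and in no WT mouse and was not tested. Its values were -6.39, -6.14, -4.27 and -2.71 in PCKO mice, against -5.79, -6.19, -5.29 and -4.65 in WT mice, with overlapping groups. Kcna7 and Kcnq5 differed in their change by 0.12 ± 0.21 (exact p = 0.54), again with 1 of the 2 at background in PCKO, and by -1.85 with the normexp correction.

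**Figure D2:**
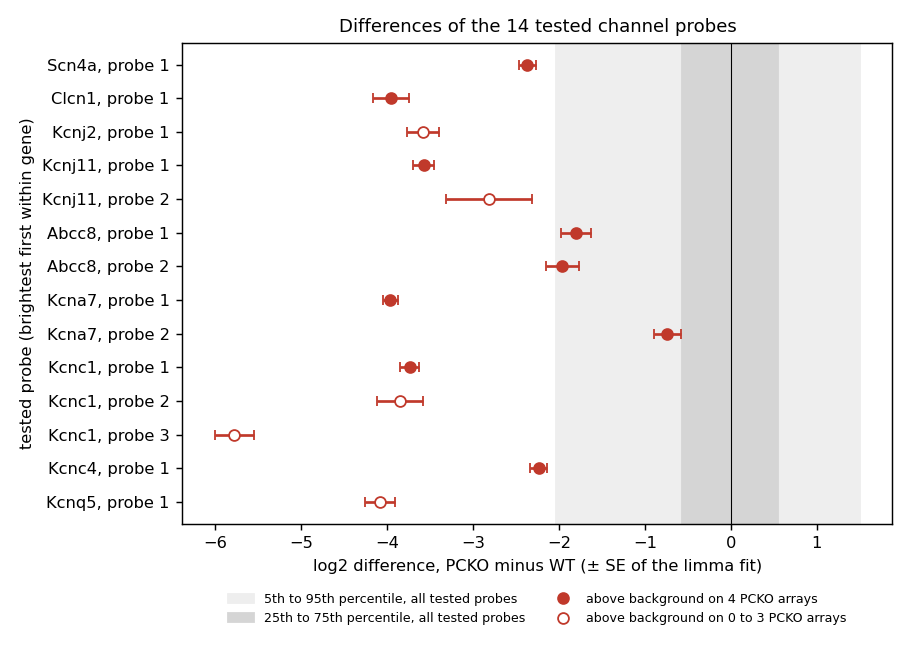
Log2 difference, PCKO minus WT, with the SE of the limma fit (horizontal axis) for the 14 tested channel probes, 4 mice per group. Open points mark probes above background on 0 to 3 PCKO arrays, and grey bands span the 25th to 75th and the 5th to 95th percentiles of all 24872 tested probes. All points lie left of 0, and 11 of the 14 lie beyond a 4-fold reduction in the processed signal. The open points are all among these 11, and their size depends on the background treatment.

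**Figure D3:**
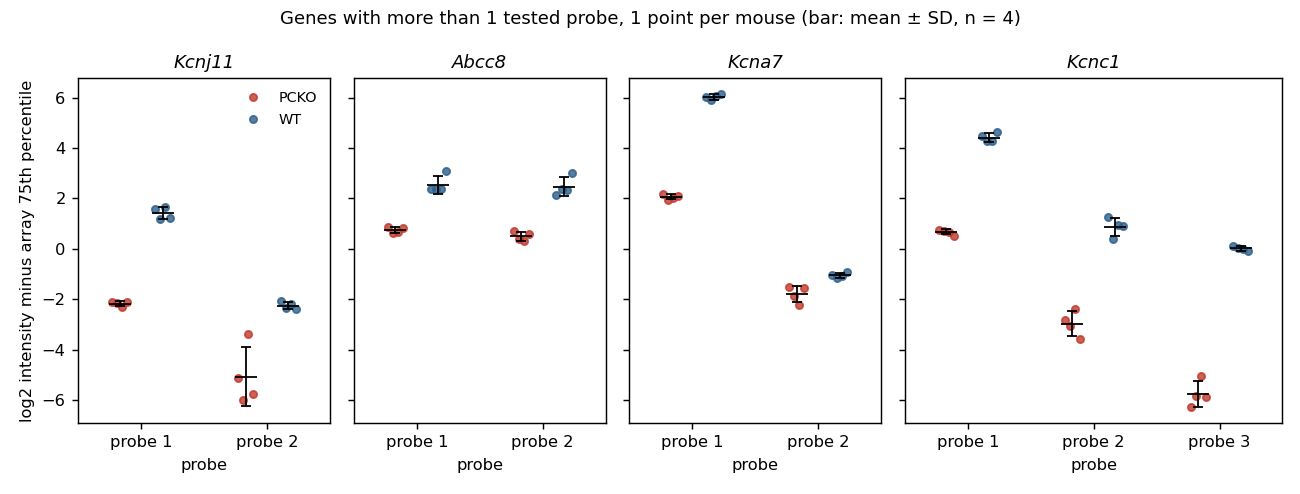
Log2 intensity minus the array's 75th percentile (vertical axis) for the tested probes of Kcnj11, Abcc8, Kcna7 and Kcnc1, 1 point per mouse, with mean and SD for 4 PCKO and 4 WT mice. The 2 Abcc8 probes move alike, while the bright Kcna7 probe shows a log2 difference of -3.96 and the dim one of -0.74.

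Arranged by size, the log2 differences at the brightest probes were Kcnq5 (-4.08), Kcna7 (-3.96), Clcn1 (-3.96), Kcnc1 (-3.74), Kcnj2 (-3.58), Kcnj11 (-3.58), Scn4a (-2.37), Kcnc4 (-2.24) and Abcc8 (-1.80). Kcnq5 in every PCKO mouse and Kcnj2 in all but 1 lay at background, so their places are not measured: with normexp they stood at -1.68 and -1.42, behind Kcna7 (-3.53), Kcnc1 (-3.18), Clcn1 (-2.60), Kcnj11 (-2.27) and Kcnc4 (-1.71). In the processed signal, the steps between Kcnj11 and Scn4a and between Kcnc4 and Abcc8 were larger than the sum of the 2 SEs, and the other neighbours differed by less than that. Among all 12739 named genes, by their brightest probe, between 1.09% (Kcna7) and 5.75% (Abcc8) had a lower difference than the channel gene concerned, leaving out Kcnq5 and Kcnj2. Within slide row 1 alone, which held 2 mice of each group, the 9 differences ran from -4.28 to -1.63, and within row 2 alone from -4.38 to -1.97, with all 9 lower at an adjusted p of 0.05 in each row. With spike-in centring they ran from -3.41 to -1.12, and with the normexp correction, whose added offset shrinks the change of dim probes, from -3.53 to -1.36, again with all 9 lower. In all of these the filter had fixed the direction of Kcnj2 and Kcnq5.

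**Figure D4:**
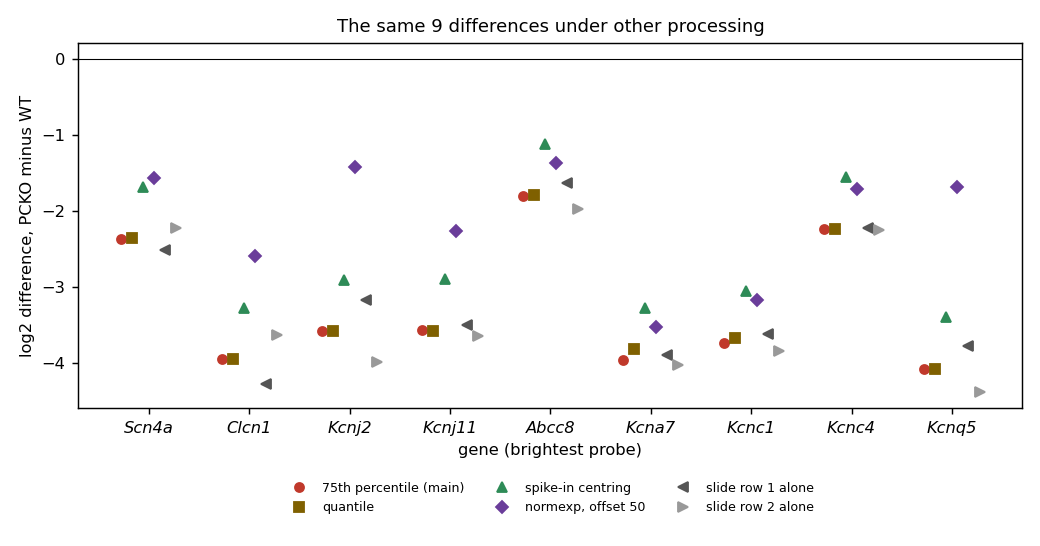
Log2 difference, PCKO minus WT (vertical axis), of the brightest probe of the 9 channel genes under 6 ways of processing or subsets of the arrays. All symbols lie below 0; spike-in centring raises each by about the same amount, and the normexp correction raises the dim genes Kcnj2 (-1.42) and Kcnq5 (-1.68) most.

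The channel genes were then set beside 144 related genes, in lists of other subunits and families. Of these, 140 were on the array and 65 were tested, 33 of them lower and 11 higher in PCKO (50.8% and 16.9%), against 31.9% lower and 37.5% higher among all named genes. With spike-in centring 14 were lower and 21 higher (21.5% and 32.3%), against 9.40% lower and 53.5% higher among all named genes. The 9 channel genes were lower under both scalings, where the filter had fixed the direction of Kcnj2 and Kcnq5.

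Partners of Nav1.4 were lower with it. All 4 tested genes among the sodium channel beta subunits and FGF homologous factors were lower (median -1.55), and 2 remained so with spike-in centring. Scn4b, a beta subunit that shapes channel gating, read 4.03, 3.68, 3.75 and 3.95 in PCKO mice, against 7.35, 7.17, 7.31 and 7.49 in WT mice, a log2 difference of -3.48 ± 0.11 (adjusted p = 7.2e-08). Of 4 other sodium channel alpha subunits tested, 2 were lower: Scn2a differed by -1.46 ± 0.13 at its brightest probe, and Scn8a by -0.41 ± 0.13, a call lost without PCKO replicate 1 (adjusted p = 0.061), WT replicate 3 (0.062) or WT replicate 4 (0.058) and reversed in sign with spike-in centring (0.27).

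Among inward rectifiers and KATP subunits, 3 of 5 tested genes were lower and 1 higher (median -1.07), against 1 lower and 2 higher with spike-in centring. Kcnj12 (Kir2.2), the close relative of Kir2.1, fell by 2.83 ± 0.13 on the log2 scale (adjusted p = 3.9e-07). Kcnj4 (Kir2.3), another member of that subfamily, read -0.08, -0.39, -0.75 and -0.80 in PCKO mice, against -5.32, -5.72, -4.15 and -5.67 in WT mice. All PCKO mice and no WT mouse had it above background, which makes it at least 9.43-fold higher in the processed signal (adjusted p = 6.7e-06), with a smaller log2 difference of 0.91 under normexp. It passed the filter through the PCKO arrays alone and so had to be higher, and with probes above background on all 8 arrays no gene of the list was higher. Abcc9, encoding the receptor SUR2, differed by -1.07 ± 0.08 (adjusted p = 7.7e-06) and Kcnj8, the pore Kir6.1 of blood vessel KATP channels, by -1.18 ± 0.11 (adjusted p = 2.1e-05). With spike-in centring these calls were lost (-0.39, adjusted p = 0.25, and -0.50, adjusted p = 0.13). Markers of smooth muscle and pericytes had a summed log2 level of 5.63 to 6.07 in PCKO and 6.60 to 6.90 in WT, and their part in the values of Kcnj8 and Abcc9 was not tested.

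Among voltage-gated potassium channel alpha subunits, 8 of 14 tested genes were lower and 1 higher (median -0.78), against 4 lower and 2 higher with spike-in centring. Kcnf1 and Kcng4, modifier subunits that do not form channels alone, were detected in all WT mice but in no PCKO mouse, Kcnf1 at least 24.5-fold lower at its brightest probe (7.74-fold at its other) and Kcng4 at least 2.25-fold lower in the processed signal. With normexp their log2 differences were -2.32 and -1.35 for the Kcnf1 probes and -0.89 for Kcng4, smaller than the bounds. Kcnf1, Kcng4 and Kcnv2, also counted as lower, passed the filter through the WT arrays alone and so had to be lower. With probes above background on all 8 arrays, 5 genes of the list were lower. Among the ancillary subunits 4 of 5 were lower (1 with spike-in centring), with Kcnab1, a cytoplasmic beta subunit of Shaker channels, at -3.71 ± 0.23 (adjusted p = 2.4e-06) and Kcne3, which assembles with Kv3.4 in muscle, at -0.91 ± 0.15 at its brighter probe (adjusted p = 8.6e-04, but 0.52 with spike-in centring). Of 5 calcium- and sodium-activated channels, 2 were lower and 1 higher (1 and 2 with spike-in centring). Kcnma1, the large-conductance BK channel, differed by -1.99 ± 0.11 (adjusted p = 1.3e-06), and Kcnn2, a small-conductance channel, by -0.998 ± 0.15 (adjusted p = 4.3e-04, but 0.36 with spike-in centring). Kcnn3, the SK3 channel of denervated muscle, differed by 0.17 ± 0.31 (adjusted p = 0.65) with overlapping groups. With spike-in centring it was higher (0.85, adjusted p = 0.013), where the median of all named genes was 0.73. Its sign differed between slide row 1 (0.735) and row 2 (-0.396), and it was -0.24 with normexp. Of 3 tandem-pore potassium channels 1 was lower, Kcnk6 (-0.28 ± 0.11, adjusted p = 0.043), whose call was lost when PCKO replicate 1, 3 or 4 or WT replicate 1 or 2 was left out (adjusted p of 0.056 to 0.11).

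The other chloride and anion channels went in both directions. Of 17 tested genes 3 were lower and 6 higher (17.6% and 35.3%, median 0.21), a share of higher genes near the 37.5% of all named genes. Among the lower genes, Clcn6 passed the filter through the WT arrays alone and so had to be lower. With spike-in centring 2 were lower and 11 higher (64.7%), against 53.5% higher among all named genes. Clcn2, the widely expressed relative of ClC-1, read 0.43, 0.34, 0.37 and 0.25 in PCKO mice, against -0.83, -0.85, -1.05 and -0.87 in WT mice at its brighter probe. The groups did not overlap and the log2 difference was 1.25 ± 0.08, or 2.38-fold higher (adjusted p = 3.9e-06), with 0.92 ± 0.09 at its other probe. Ostm1, the partner subunit of the lysosomal transporter ClC-7, rose by 1.73 ± 0.09 (adjusted p = 1.2e-06), and Best3, a bestrophin, fell by 1.59 ± 0.21 (adjusted p = 2.4e-04). Of 8 proteins that anchor or regulate channels, 6 were lower and 2 higher, against 2 lower and 2 higher with spike-in centring. Ank1, whose small muscle isoform ties the sarcoplasmic reticulum to the myofibril, differed by -4.40 ± 0.12 (adjusted p = 3.9e-08). Ank3, ankyrin-G, which holds sodium channels at the junctional folds, was lower at its 3 tested probes (-0.73 ± 0.13, -1.39 ± 0.14 and -0.55 ± 0.13), of which 1 stayed lower with spike-in centring. Sptbn4, a spectrin that binds ankyrin-G, was at least 2.49-fold higher (adjusted p = 0.0013), a call lost with the normexp correction (0.03, adjusted p = 0.88). It passed the filter through the PCKO arrays alone and so had to be higher. With probes above background on all 8 arrays, 1 gene of this list was higher.

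**Figure D5:**
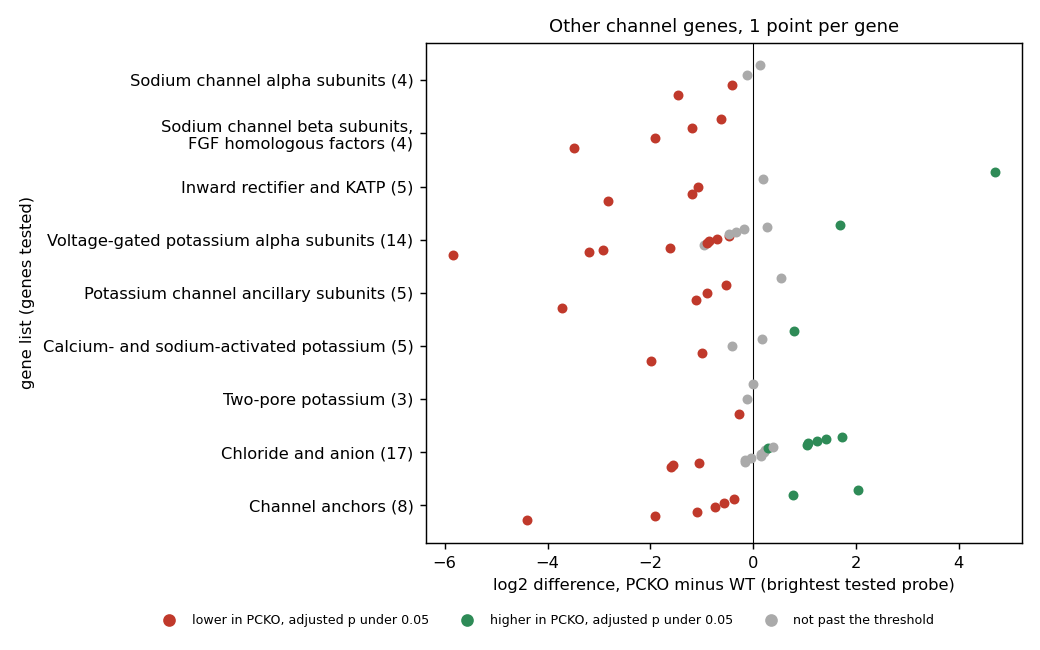
Log2 difference, PCKO minus WT (horizontal axis), at the brightest tested probe of each of 65 related channel genes, in 9 lists with the number tested in brackets. Red points are lower and green points higher in PCKO at an adjusted p of 0.05, grey points did not pass. The single point near 4.71 is Kcnj4, and chloride and anion channels spread to both sides of 0.

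Next to the channel genes in the annotation, the adjacent protein-coding genes gave mixed values. Myod1, the myogenic transcription factor beside Kcnc1, was lower by 6.43 ± 0.15 on the processed log2 scale, whereas Sergef on the other side of Kcnc1 was higher by 1.73 ± 0.10. Nomo1 beside Kcnj11 differed by -0.11 ± 0.11 (adjusted p = 0.41) and Ush1c beside Abcc8 by 1.15 ± 0.21 (adjusted p = 0.0014). Casp2 beside Clcn1 differed by 0.16 ± 0.09 (adjusted p = 0.14), Snrnp70 and Ntf5 on the sides of Kcna7 by 0.54 ± 0.07 and -0.66 ± 0.12, and Cd79b and Prr29 on the sides of Scn4a by -0.76 ± 0.28 and -0.07 ± 0.18. Rbm15 beside Kcnc4 differed by -0.05 ± 0.11 (adjusted p = 0.73).

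Other genes had nearly the same profile over the 8 arrays. Likeness was measured as the root mean square difference in log2 units after each gene was centred on its own mean, over 12691 other named genes, and mostly reflects the size of the group difference. Closest to Scn4a were Tcea3 (0.07), an elongation factor, and Ppp1r3a (0.10), the muscle glycogen-targeting subunit of protein phosphatase. Closest to Clcn1 were Pcsk1n (0.16) and Stxbp4 (0.18), and to Kcnj2 Myo18b (0.15) and Nexn (0.18), both of sarcomere-associated proteins. Trim72 (0.13), the membrane repair protein MG53, and Gm13315 (0.13) were closest to Kcnj11, and Pfn2 (0.16) and Mef2c (0.16), a myogenic transcription factor, to Abcc8. Synm (0.10), an intermediate filament protein, and Tmod4 (0.11), a thin filament cap, were closest to Kcna7. Synm (0.12) was also among the genes closest to Kcnc1. Aox1 (0.06) and Phkb (0.08), a subunit of phosphorylase kinase, were closest to Kcnc4, and Ldb3 (0.16), a Z-disc protein, and Crhr2 (0.22) to Kcnq5.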

How the data were processed

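The authors labelled EDL RNA with Cy3 and scanned 1 Agilent SurePrint G3 mouse array per mouse, per the labels. The deposited scanner files hold spot intensity values from Feature Extraction 10.7.3.1 with background subtracted and spatial trends removed, per the file headers, and no scaling between arrays. How the log2 values of the deposited series table were made is not given here, and the table was used only as an alternative. The processed intensity was taken to log2 and the 75th percentile of the array over non-control probes was subtracted. Non-uniform and population outlier spots were left out and spots of a probe averaged. Accessions were matched without versions to a RefSeq table (GRCm38.p6), which named 26582 probes and left 29099 unnamed. The array design is annotated on another build, so gene coordinates are not given. No probe sequence was used, so cross-hybridisation between similar genes could not be examined.

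A probe was tested when 4 or more of the 8 arrays had it well above background. Tests used limma 3.58.1 (lmFit, then eBayes) under R 4.3.3, with genotype alone in the model (two-sided, Benjamini-Hochberg over all tested probes, threshold 0.05), following a check on simulated data. Changes of 2 probes were compared by exact permutation of their within-array difference over 70 splits, adjusted over 12 pairs. Members, lists and settings were chosen with earlier results of these data known. In each related list the 2 largest called, non-overlapping changes were named, with a set of genes of known muscle roles, the 2 nearest profiles and the adjacent genes of each channel gene. Some genes that this rule names are not reported here. Alternatives were quantile, median and spike-in (7 probes) scaling, a normexp background correction with offset 50 on the median spot signal, other filters on dim probes, outlier spots kept, a fit by gene, array weights, a trend with intensity, the deposited table, blocks for replicate number and slide row, each row alone, and leaving out each mouse. The precision rests on 4 mice a group.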

Additional observations from a re-analysis of the deposited data

Results flagged for a closer look

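In 90 groups of 4 mice, over the tested probes of the channel genes and of the named related genes, 2 held a mouse far from the other 3 (Dixon's test), where chance alone gives about 5% of groups. Abcc8 at its brighter probe was 3.07 in WT replicate 4, against 2.35 to 2.37 in the other WT mice, and the second Abcc8 probe was high in the same mouse. Clcn2 at its brighter probe was -1.05 in WT replicate 3, against -0.87 to -0.83 in the other WT mice.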

How the results depend on the processing

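All 9 channel genes stayed lower at their brightest probe in every setting that tested them. For Kcnj2 and Kcnq5, which passed the filter through the WT arrays and so had to be lower, that direction is not a check. With probes above background on all 8 arrays, 7 genes and 9 probes remained to be tested and all were lower, and the deposited table lists 4 of these brightest probes and 7 of the 14 probes, all lower. Among the settings run on single channel probes, 301 values kept direction and call, and 4 lost the call with the same direction: the dim Kcna7 probe with spike-in centring and in each slide row alone, and the dim Kcnj11 probe in row 2 alone (-2.27, adjusted p = 0.094). The 301 include 21 values of Kcnj2, 21 of Kcnq5, 20 of the dim Kcnj11 probe and 21 of the dimmest Kcnc1 probe. The filter had fixed the direction of these probes, so those values are no check of it. The median log2 difference over the 14 probes, -3.58, became -2.90 with spike-in centring, -1.70 with normexp, -2.37 above background on all 8 arrays, -1.83 in the deposited table and -3.44 in slide row 1 alone. Over all probes, 7785 were lower and 8397 higher, against 2393 and 12969 with spike-in centring and 4023 and 5371 in the smaller deposited table, and 5436 and 5458 were higher in slide rows 1 and 2 alone with fewer mice. The 33 lower and 11 higher related channel genes became 14 and 21 with spike-in centring and 20 and 4 in the deposited table. Spike-in centring turned the sign of Scn8a (0.27, adjusted p = 0.44), Kcnk6 (0.40, adjusted p = 0.24) and the dimmest Ank3 probe (0.13, adjusted p = 0.73).

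Differences between the changes of 2 probes turned with the normexp correction where a probe lay near background in PCKO: between Kcnc1 probes 1.93 became -0.19, 2.04 became -1.29 and 0.11 became -1.10, for Kcnj2 and Kcnj11 -0.01 became 0.85, and for Kcna7 and Kcnq5 0.12 became -1.85. Leaving out single mice moved the first 2 Kcnc1 probes between -0.049 and 0.297, Kcnj2 and Kcnj11 between -0.12 and 0.17, and Kcna7 and Kcnq5 between -0.018 and 0.276. Whether replicate numbers pair the samples is not settled. Same-numbered deviations correlated weakly, at 0.02 to 0.09, but 3 of 4 PCKO mice correlated best with their own number. With the replicate number as a block all 14 probes stayed lower, 4 of them in a direction fixed by the filter, with 7721 lower and 8170 higher of all probes. Depth is limited by background: below it the size of a fall is a bound.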
